A study of Mus musculus with 10 samples.

Results

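The receptors for VEGFs, angiopoietins and class 3 semaphorins were examined in RNA of sorted fetal liver LT-HSCs. The set was chosen by name as 7 rows of the table of 17404 genes: the VEGF receptors Kdr, Flt1 and Flt4, the Tie receptors Tek and Tie1, and the neuropilins Nrp1 and Nrp2. The KO group held 6 livers of Tnfrsf11aCre; Spi1f/f embryos, and the WT group held 4 livers of Tnfrsf11a+/+; Spi1f/f embryos. All 10 embryos were at E14.5, were on a C57BL/6 background and carried the floxed Spi1 alleles, and the groups differed in the Cre. The WT embryos were littermates of KO embryos, but which embryos shared a litter is not given in the labels, so the tests take no account of litter. Cre is driven from the Tnfrsf11a locus, which is active in macrophage precursors, and Spi1 encodes PU.1, a transcription factor that macrophages require, so the KO embryos are a model of macrophage depletion rather than of a deletion in stem cells. The sort kept live single cells that were Lin-, c-Kit+, Sca1+, CD48- and CD150+, and the antibody panel had neither an endothelial marker such as CD31 nor the pan-leukocyte marker CD45.

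KDR is the main signalling receptor for VEGF-A on endothelial cells. FLT1 binds VEGF-A tightly but signals weakly, and its soluble form acts as a trap for the ligand. FLT4 binds VEGF-C and is found on lymphatic endothelium and on the sinusoids of the liver. TEK, also called TIE2, is the receptor for angiopoietins and is known on endothelial cells and on a subset of stem cells, and TIE1 is its partner without a ligand of its own among the angiopoietins. NRP1 and NRP2 bind VEGFs and class 3 semaphorins and act beside KDR, FLT4 and the plexins. Sinusoidal endothelial cells, which line the vessels of the fetal liver, carry several of these receptors together with the scavenger receptors STAB1 and STAB2 and with LYVE1.

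In GRCm38 (Gencode vM21), Kdr lies on chromosome 5 from 75932827 to 75978458 and Flt1 on the same chromosome from 147561604 to 147726011, both on the minus strand. Flt4 lies on chromosome 11 from 49609263 to 49652739 on the plus strand. Tek spans 94739289 to 94874976 on the plus strand of chromosome 4, and Tie1 spans 118471191 to 118490061 on its minus strand. Nrp1 is on chromosome 8 from 128358604 to 128503363 and Nrp2 on chromosome 1 from 62703285 to 62818695, both on the plus strand. Nrp2 overlaps an antisense gene and Nrp1 a microRNA gene, and reads of overlapping genes could not be told apart by strand.

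The promoters of Kdr, Flt4 and Flt1 are shown because Kdr and Flt4 were among the genes that moved together across libraries, whereas Flt1 stayed high in a library in which both were low. Each runs from 250 bases before to 50 bases after the RefSeq start (GRCm38.p6), 5′ to 3′ on the strand of the gene, with GGAA, the core of ETS factor motifs, and its reverse complement TTCC in capitals.
Kdr, chr5:75978406-75978705, minus strand: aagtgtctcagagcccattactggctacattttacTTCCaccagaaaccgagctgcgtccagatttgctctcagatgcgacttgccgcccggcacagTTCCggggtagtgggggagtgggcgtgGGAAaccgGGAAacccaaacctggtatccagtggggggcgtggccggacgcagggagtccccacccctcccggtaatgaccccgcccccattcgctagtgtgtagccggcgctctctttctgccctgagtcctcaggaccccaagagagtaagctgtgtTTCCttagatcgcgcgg
Flt4, chr11:49609429-49609728, plus strand: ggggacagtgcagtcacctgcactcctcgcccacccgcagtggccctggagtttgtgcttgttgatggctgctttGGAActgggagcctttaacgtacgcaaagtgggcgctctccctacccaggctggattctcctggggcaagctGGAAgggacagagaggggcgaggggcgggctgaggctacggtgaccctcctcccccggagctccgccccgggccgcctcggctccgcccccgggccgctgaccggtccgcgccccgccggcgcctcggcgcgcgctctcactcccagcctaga
Flt1, chr5:147725962-147726261, minus strand: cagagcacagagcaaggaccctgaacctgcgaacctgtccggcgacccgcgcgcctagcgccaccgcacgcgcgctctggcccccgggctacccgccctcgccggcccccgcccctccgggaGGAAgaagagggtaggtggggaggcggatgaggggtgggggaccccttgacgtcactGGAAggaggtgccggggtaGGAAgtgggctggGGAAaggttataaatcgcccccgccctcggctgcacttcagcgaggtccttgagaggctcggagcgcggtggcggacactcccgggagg
Counted on both strands, GGAA occurred 5 times in the Kdr promoter, 2 times in that of Flt4 and 4 times in that of Flt1. The motif was present in 96% of 32851 RefSeq promoters of this length, with a median of 3 matches, and in all 7 receptor promoters. The GATA motif AGATAA, or its reverse complement TTATCT, was found in 11.2% of all promoters and in 1 of the 7, that of Tek. CANNTG, the E-box, was found in 72.3% of all promoters and in 5 of the 7, with no match for Flt1 and Nrp1. These matches describe letters in the window and no binding was measured.

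The libraries held 5315435 to 30941726 counts on genes. Spi1 itself spanned 9.10 to 101 CPM (counts scaled to library size with TMM factors, per 1000000) in KO libraries and 6.22 to 50.1 CPM in the WT ones, and it did not differ by the quasi-likelihood test of edgeR (log2 fold change 1.31, SE 0.69, adjusted p = 0.337 over all genes, Benjamini-Hochberg). The Cre is meant to act in macrophage precursors, so Spi1 in sorted stem cells does not check the labels. The stem cell genes Kit and Slamf1 were detected in every library, at 78.2 to 389 CPM and 9.86 to 76.9 CPM. Ly6a, which encodes the Sca1 of the sort, was at 5.55 CPM in WT replicate 15418 and at 15.8 to 207 CPM in the other 9 libraries. Markers of cell types outside the gate were present too. The 11 hepatoblast genes summed to 111 to 9124 CPM in KO and 272 to 6253 CPM in WT, the 7 megakaryocyte genes to 239 to 3513 CPM and 222 to 1224 CPM, and the 14 macrophage genes to 137 to 219 CPM and 99.2 to 372 CPM. Vcam1 alone held 51.7 to 155 CPM of the macrophage sum in KO and 55.1 to 71.2 CPM in WT. The median log2 fold change of the 14 macrophage genes was -1.16, and 2 of them had a positive value. The sum therefore does not show the direction of most of its genes. Marco, a macrophage scavenger receptor, was at 0 in all 6 KO libraries and at 3.41 to 14.3 CPM in WT. In bulk RNA, fewer cells of a type and less RNA per cell cannot be told apart.

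Kdr varied widely between libraries. In KO it was at 803, 496, 1250, 509, 450 and 154 CPM in replicates 15405, 15406, 15409, 15411, 15412 and 15415, and in WT at 50.8, 664, 520.5 and 794 CPM in replicates 15416, 15417, 15418 and 15420. The groups overlapped, WT replicate 15416 was the lowest of all 10 libraries and KO replicate 15415 the next. In the same order of libraries Flt4 was at 537, 285, 662, 254, 266 and 78.8 CPM in KO and at 11.9, 441.5, 348.5 and 432 CPM in WT. The same libraries stood at the low end for Flt4, and its highest and lowest values were 55.6-fold apart, against 24.6-fold for Kdr.

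Flt1 behaved otherwise in WT replicate 15416. It was at 353, 196, 453, 160.2, 320.0 and 150.0 CPM in KO and at 277, 231.5, 154 and 400 CPM in WT. WT replicate 15416 was here the second highest of the WT libraries, and the highest and lowest of the 10 values were 3.02-fold apart.

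The highest and lowest values of the Tie receptors were 8.46-fold apart for Tek and 7.14-fold for Tie1. Tek was at 300, 190.5, 399, 259, 173 and 95.6 CPM in KO and at 47.2, 240, 180.1 and 237 CPM in WT, and Tie1 at 380, 349, 329.5, 273, 171 and 161 CPM in KO and at 53.2, 279, 234 and 239 CPM in WT. Both were lowest in WT replicate 15416 and next lowest in KO replicate 15415.

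Of the neuropilins, Nrp1 was at 368, 198, 494, 181, 186 and 49.6 CPM in KO and at 30.5, 283.5, 205 and 303 CPM in WT. Nrp2 was at 121, 61.8, 129, 61.7, 79.6 and 26.0 CPM in KO and at 11.2, 75.4, 64.5 and 136 CPM in WT. The order of the 2 lowest libraries was that of Kdr, and the KO and WT values overlapped for each of the 7 genes. Over all genes tested, KO and WT libraries did not overlap in 6.36%.

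**Figure D1:**
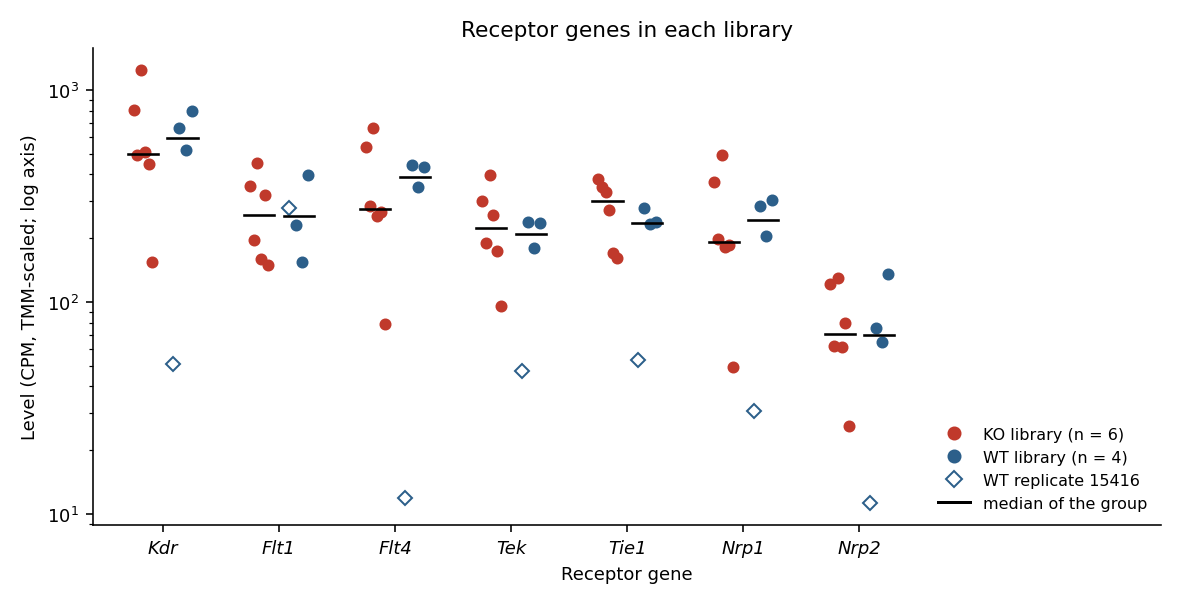
Level of the 7 receptor genes in each library, in CPM on a log axis, with 6 KO libraries (red) and 4 WT libraries (blue) and a line at the median of each group. The open diamond is WT replicate 15416, which is the lowest point for every gene but Flt1.

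Whether loss of macrophages changed these receptors was asked by comparing KO with WT. All 7 genes passed the minimum of 11 counts in total and none passed the threshold of an adjusted p of 0.1, where 3.99% of the 16725 genes tested were called, 1.32% higher and 2.67% lower in KO. By edgeR's quasi-likelihood test, Tie1 was at 277 ± 93.0 CPM in KO (SD, n = 6) and 201 ± 101 CPM in WT (n = 4), with a log2 fold change of 0.46 (SE 0.40, adjusted p = 0.581). Tek had a log2 fold change of 0.43 (SE 0.45, adjusted p = 0.66), and Kdr, at 610 ± 375 CPM against 507 ± 324 CPM, one of 0.27 (SE 0.66, adjusted p = 0.867). Nrp1 gave 0.26 (SE 0.63), Flt4 0.17 (SE 0.78), Nrp2 0.16 (SE 0.57) and Flt1 0.04 (SE 0.35). The median over the 7 was 0.26, beside 0.06 over all genes tested. At an unadjusted p under 0.05, 0 of the 7 passed, where 1438 genes were higher and 1701 lower of the 16725 tested. DESeq2 called 0 of the 7 with or without a fold-change threshold. Of 16422 genes it called 585 higher and 551 lower with the threshold, and 998 higher and 1145 lower without. Without WT replicate 15416 the log2 fold changes of Kdr, Nrp1, Nrp2 and Flt4 were -0.11, -0.10, -0.20 and -0.23, and without KO replicate 15409 they were -0.07, -0.06, -0.03 and -0.12. The sign of Flt1 turned without any one of KO replicates 15405 and 15409 and WT replicates 15417 and 15418, to between -0.17 and -0.02, and Nrp2 was at -0.00 without KO replicate 15405. The direction of these 5 genes therefore rested on single libraries. Tek and Tie1 kept a positive value without any single library, but fell from 0.43 to 0.11 and from 0.46 to 0.14 without WT replicate 15416.

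The receptors were next set against a sum of endothelial markers in each library, with which 4 of the 7 rose. A list of 21 measured endothelial markers that excludes the receptors, among them the VE-cadherin gene Cdh5, the sinusoidal scavenger receptor Stab2, Clec14a, Gpr182 and Oit3, summed to 1721 to 9471 CPM in KO and to 857 to 5782 CPM in WT. The lowest sums were those of WT replicate 15416 and KO replicate 15415. As a sum of CPM it leans on its most abundant genes. In KO replicate 15409, Stab2, Oit3 and Gpr182 held 2118, 1730 and 1171 CPM of the 9471 CPM. In WT replicate 15416 they held 6.07, 4.93 and 15.2 CPM of the 857 CPM, where Cldn5 held 355 CPM. Whether a receptor followed endothelial cells of other kinds was not tested. The log2 of the sum was 12.1 ± 0.854 in KO (SD, n = 6) and 11.7 ± 1.32 in WT (n = 4) and did not differ by a two-sided exact permutation test (p = 0.562, where 0.00476 is the smallest p that 210 splits allow). Without WT replicate 15416 the difference turned from 0.41 to -0.25 on the log2 scale (exact permutation p = 0.667).

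Across the 10 libraries, Flt4, Kdr and Nrp1 rose with this sum nearly library by library. The calls depended on the list that makes up the sum, as given after the values. Spearman's rho was 0.988 for Flt4 and 0.976 for Kdr and for Nrp1, with a two-sided permutation p of 2e-05 each (100000 permutations, adjusted p = 0.0105 over all 16725 genes). For Tek, Spearman's rho was 0.867 (permutation p = 0.00206, adjusted p = 0.0879). These 4 of the 7 genes passed an adjusted p of 0.1, where 2.31% of all genes tested were called as rising and 0.395% as falling. Tie1 and Nrp2, each with a rho of 0.794 (permutation p = 0.00902, adjusted p = 0.181), did not pass, and Flt1 had a rho of 0.552 (permutation p = 0.106, adjusted p = 0.506). With the sum of the 13 endothelial genes that stem cells also use, the calls of Flt4, Kdr and Nrp1 were lost (rho 0.855, 0.830 and 0.806, permutation, adjusted p = 0.141, 0.167 and 0.213), whereas Tek and Tie1 passed (rho 0.915 and 0.927, permutation, adjusted p = 0.0851 and 0.0634). With that sum 0.939% of all genes tested were called as rising and 0.227% as falling. With the mean of log2 values over the endothelial markers in place of their sum, the calls of Kdr and Tek were lost (rho 0.855 and 0.782).

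Pearson's r on the log2 scale was 0.991 for Kdr and Nrp1, 0.981 for Flt4, 0.977 for Tek, 0.960 for Nrp2, 0.908 for Tie1 and 0.375 for Flt1. The permutation p was 3e-05 for Kdr, 2e-05 for Nrp1 and Flt4, 0.00011 for Tek, 0.00039 for Nrp2, 0.00089 for Tie1 and 0.299 for Flt1. When the 2 libraries farthest from the median of the sum, WT replicate 15416 and KO replicate 15415, were left out, r was 0.978 for Nrp1, 0.977 for Flt4, 0.954 for Kdr, 0.864 for Tek, 0.742 for Nrp2, 0.642 for Flt1 and 0.590 for Tie1. Kdr, Flt4 and Nrp1 thus kept a high r without them. For Flt1 it was WT replicate 15416 that lowered the relation, with a rho of 0.717 and an r of 0.693 over the other 9 libraries (exact permutation p = 0.0369 and 0.0239, adjusted p for rho 0.333). The call for Tek was lost without any of KO replicates 15405, 15409, 15412 and 15415 or WT replicates 15416 and 15417, with rho between 0.817 and 0.883, and Tie1 passed without KO replicate 15406 (rho 0.933, adjusted p = 0.0612).

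Within genotypes, the relation was computed in KO alone and on deviations from the genotype means, since 4 WT libraries are too few for a correlation. Among the 6 KO libraries rho was 0.943 for Kdr, Flt4, Tek and Nrp1 (exact permutation p = 0.0167) and 0.829 for Flt1, Tie1 and Nrp2 (exact permutation p = 0.0583). With 6 libraries 0 of 16725 genes passed after adjustment. As deviations from the genotype means over all 10 libraries, rho was 0.976 for Tek, 0.952 for Kdr, 0.939 for Nrp1, 0.903 for Flt4, 0.879 for Nrp2, 0.818 for Tie1 and 0.515 for Flt1. On that scale Kdr, Flt4, Tek, Nrp1 and Nrp2 passed the threshold, where 3.89% of all genes tested were called as rising and 1.14% as falling, and Tie1 (adjusted p = 0.102) and Flt1 (adjusted p = 0.456) did not. The list of 8 stem cell sort markers held Kit, Ly6a and Slamf1, and Cd48, whose protein the sort excluded. It also held Hlf, Mecom, Fgd5 and Hoxb5, which the sort did not use, so its sum does not measure the sorted phenotype. That sum gave a rho of -0.539 for Nrp1, -0.515 for Flt4 and Nrp2, -0.491 for Kdr, -0.382 for Flt1, -0.091 for Tek and 0.079 for Tie1, with a lowest adjusted permutation p of 0.433. With that sum 0 of 16725 genes passed, so the lack of a call says nothing particular about the receptors.

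**Figure D2:**
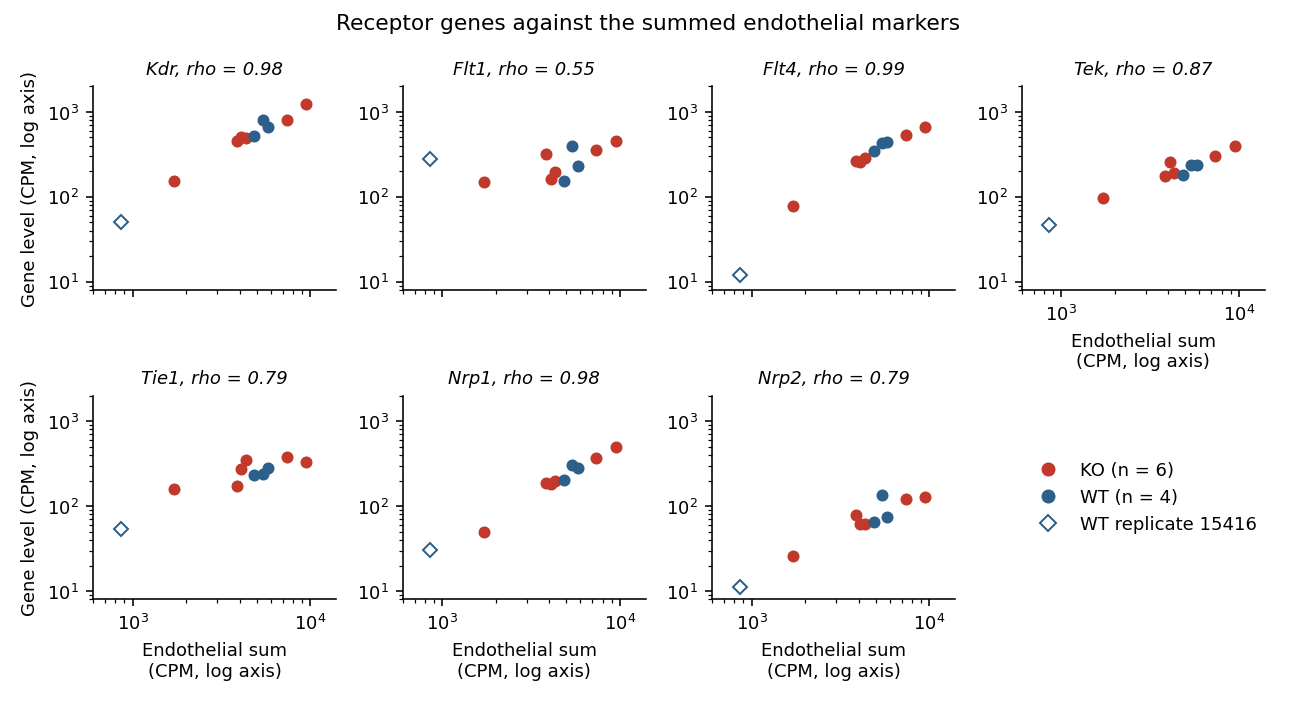
Level of each receptor gene (CPM, log axis) against the summed CPM of the endothelial markers (log axis) in 6 KO (red) and 4 WT (blue) libraries, with Spearman's rho above each panel. Kdr, Flt4 and Nrp1 climb with the sum from 857 to 9471 CPM, whereas Flt1 in WT replicate 15416 (open diamond) lies at 277 CPM at the lowest sum.

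With the endothelial sum as a covariate in the edgeR fit, the SEs of the log2 fold changes shrank for 6 of the 7 genes. Kdr went from 0.27 (SE 0.66) to 0.03 (SE 0.16), Nrp1 from 0.26 (SE 0.63) to -0.13 (SE 0.16), Flt4 from 0.17 (SE 0.78) to 0.09 (SE 0.22) and Nrp2 from 0.16 (SE 0.57) to -0.04 (SE 0.23). Tek went from 0.43 (SE 0.45) to 0.20 (SE 0.16) and Tie1 from 0.46 (SE 0.40) to 0.37 (SE 0.21). The SE of Flt1 was 0.35 with and without the covariate. None of the 7 genes passed the threshold with the covariate, where 4.29% of all genes tested were called, 1.76% higher and 2.52% lower in KO.

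**Figure D3:**
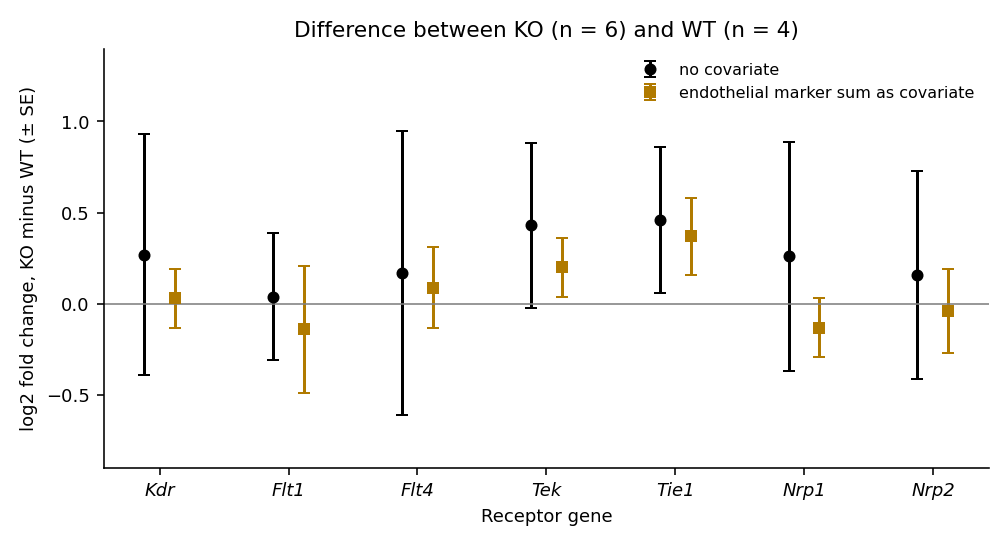
The log2 fold change of each receptor gene, KO minus WT, with its SE as error bar, from the fit without a covariate (black circles) and with the endothelial marker sum as covariate (ochre squares). The bars of Kdr shorten from an SE of 0.66 to 0.16 and those of Flt1 stay at 0.35.

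In WT replicate 15416 Flt1 stood apart from the other 6 genes. Relative to the median of the other 9 libraries, Flt4 was there at 3.42%, Kdr at 9.76%, Nrp1 at 14.9%, Nrp2 at 14.9%, Tie1 at 19.5% and Tek at 19.9%, against 119.5% for Flt1. Of 4498 genes with a mean of at least 50 CPM, 6.87% were at or under 20% of that median in this library and 22.2% were at their lowest there, against 6 of the 7 receptors in both counts. These comparisons were chosen after the values were seen and are descriptions.

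The endothelial markers were spread over a wide range in the same library. The sinusoidal genes Oit3, Stab2 and Lyve1 were at 0.551%, 0.652% and 1.14% of the median of the other libraries, and Fabp4, a lipid carrier of endothelial cells, at 0.643%. Gpr182 was at 2.53%, Plvap at 4.39%, Clec14a at 5.80% and Cdh5 at 14.0%. The tight junction gene Cldn5 was at 114%, Ptprb, the phosphatase that acts on TEK, at 78.9%, and the arterial transcription factor gene Sox17 at 76.2%. Others lay in between, with Sox18 at 45.7%, Adgrl4 at 34.9%, Sox7 at 28.3%, Ramp2 at 28.0% and Ecscr at 18.5%. The arterial gene Dll4 was at 11.5%, unlike Sox17, and Bmx was at 667%, from 1.14 CPM as the median of the others to 7.58 CPM. Of the 21 endothelial markers 15 were at their lowest in this library.

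Other lists shifted in WT replicate 15416 as well. Some stem cell genes were low, with Mecom at 11.9%, Fgd5 at 12.3% and Hlf at 25.5%, whereas Ly6a was at 569%, Slamf1 at 99.6% and Kit at 90.5%. Mecom and Ly6a also belong to the list of endothelial genes that stem cells use. The mesenchymal markers had a median of 292% of their level in the other libraries, with Dcn at 805% and Col1a2 at 615%, and summed to 260 CPM, against 37.65 to 49.9 CPM in the other WT libraries and 19.7 to 299.7 CPM in KO. Ly6c1, one of the lineage genes of the sort, was at 2737% and the erythroid factor gene Klf1 at 651%. How the purity of this library after the sort compared with the others was not analysed here. The part that each of these shifts has in the receptor values was not tested.

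**Figure D4:**
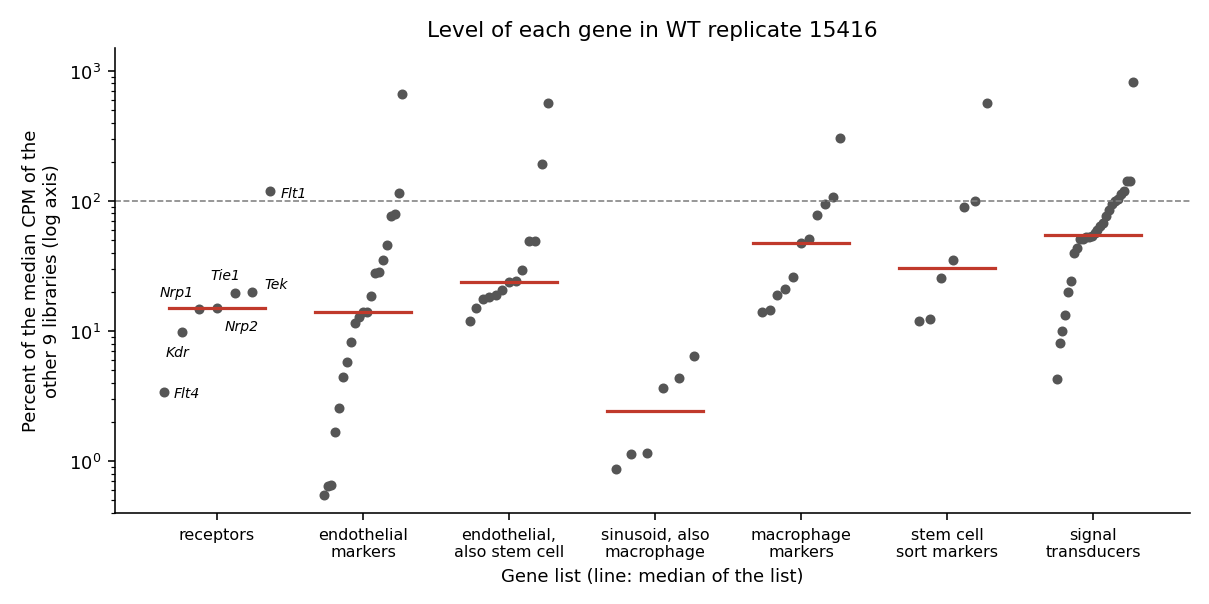
Level of each gene of 7 lists in WT replicate 15416 as a percent of its median CPM in the other 9 libraries (log axis, dashed line at equal level), with a red line at the median of each list. Flt1 lies at 119.5% and the other 6 receptors between 3.42% and 19.9%. Genes at 0 in this library or with a median of 0 in the others cannot be drawn, and a few genes belong to 2 lists.

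In KO replicate 15415, the library with the next lowest endothelial sum, the receptors lay closer together. Flt4 was at 22.6% of the median of the other 9 libraries, Nrp1 at 24.2%, Kdr at 29.6%, Nrp2 at 34.5%, Tek at 40.3%, Flt1 at 54.2% and Tie1 at 59.1%, beside 29.2% for Stab2 and 51.6% for Cldn5. This library also held the highest hepatoblast sum, 9124 CPM, and the highest megakaryocyte sum, 3513 CPM, and the part of these in its receptor levels was not tested.

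The levels of the 6 genes other than Flt1 ran together across libraries, with proportions that held more closely for some than for others. Over the 10 libraries, r between log2 values was 0.849 to 0.989 in the 15 pairs of these 6 genes and 0.078 to 0.476 in the 6 pairs with Flt1. The ratio of Nrp1 to Kdr in CPM ranged from 0.322 to 0.600, and that of Flt4 to Kdr from 0.499 to 0.670 in 9 libraries and 0.234 in WT replicate 15416. The ratio to Kdr ranged from 0.103 to 0.221 for Nrp2 and from 0.299 to 0.928 for Tek. For Tie1 it ranged from 0.264 to 1.05, a 3.97-fold span with or without WT replicate 15416. The ratio of Flt1 to Kdr ranged from 0.296 to 0.974 in 9 libraries, a 3.29-fold span that was narrower than that of Tie1, and was 5.45 in WT replicate 15416. The points share their libraries, so these are descriptions.

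Between genes, levels were compared as TPM, which are scaled for transcript length. The TPM carry no TMM factors, which ranged from 0.741 in WT replicate 15418 to 1.19 in KO replicate 15406. The TPM means of KO and WT are therefore not a comparison of the groups. In KO the order of the means was Kdr at 117 ± 77.1 TPM (SD, n = 6), Nrp1 at 79.7 ± 54.4, Tie1 at 77.9 ± 34.3, Flt4 at 63.4 ± 41.9, Tek at 62.8 ± 32.5, Flt1 at 50.3 ± 23.5 and Nrp2 at 14.3 ± 7.72. In WT it was Kdr at 69.6 ± 49.1 TPM (SD, n = 4), Nrp1 at 47.2 ± 32.4, Tie1 at 40.2 ± 23.4, Flt4 at 40.0 ± 29.3, Flt1 at 33.6 ± 14.7, Tek at 32.6 ± 19.5 and Nrp2 at 9.16 ± 6.84. Kdr was above Nrp1 in 6 of 6 KO and 4 of 4 WT libraries, and Nrp2 was last in all 10. The genes in between changed places from library to library. Nrp1 was above Tie1 in 3 of 6 KO libraries and 3 of 4 WT libraries, and Tie1 above Flt4 in 4 of 6 and 2 of 4. Differences between neighbours were not tested. In WT replicate 15416 Flt1 was first, at 34.9 TPM, ahead of Tie1 at 10.97, Tek at 9.20, Kdr at 7.17 and Nrp1 at 7.14.

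Coding transcripts held most of the RNA of each gene. They took 98.7% to 99.7% of the Kdr TPM in KO and 99.5% to 100% in WT, with the rest on transcripts that retain an intron. For Nrp1 the coding share ranged from 90.9% to 97.6% in KO libraries and from 96.4% to 99.7% in WT libraries, and for Flt4, Tek, Tie1 and Nrp2 it was at least 95.0% in every library. The coding share of Flt1 ranged from 80.3% to 92.6% in KO libraries and from 93.8% to 99.4% in WT libraries. The noncoding share of Flt1 was thus higher in every KO library than in every WT library, which was noticed after the values were seen and was not tested. The same held for 4.08% of the 5616 genes that had both kinds of transcript and a mean of at least 10 TPM, and the reverse for 0.89%. The median noncoding share over those genes was 14.7% to 16.4% in KO libraries and 10.8% to 12.3% in WT libraries, so this share stood apart between the groups over the whole table, and its part in the Flt1 value was not tested. The noncoding transcript Flt1-206, which retains an intron, was at 6.19, 3.67, 6.28, 2.79, 4.12 and 0.874 TPM in KO replicates 15405, 15406, 15409, 15411, 15412 and 15415, and at 0.225, 0.611, 0.147 and 0.273 TPM in WT replicates 15416, 15417, 15418 and 15420.

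Flt1 has 2 coding transcripts in the annotation, and both were found. The full receptor, Flt1-202, has 30 exons and 3999 coding bases, and the short form, Flt1-203, has 13 exons and 2064 coding bases, ends within the intron after exon 13 and encodes the soluble protein without the membrane and kinase parts. The point at which they part is shown because the reads past it are what tells the forms from each other. The last 30 shared bases, chr5:147639225-147639254 (GRCm38, minus strand), are in lower case, and the next 60 bases of each transcript are in capitals, from chr5:147634464-147634523 in exon 14 and from chr5:147639165-147639224 in the extended exon 13.
Flt1-202: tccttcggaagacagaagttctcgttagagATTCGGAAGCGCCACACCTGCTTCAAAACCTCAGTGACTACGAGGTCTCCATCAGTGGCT
Flt1-203: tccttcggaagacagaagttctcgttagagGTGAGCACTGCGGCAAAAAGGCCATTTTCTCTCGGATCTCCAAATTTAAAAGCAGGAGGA
The short form took 38.0%, 37.6%, 30.6%, 38.2%, 36.1% and 35.2% of the TPM of the 2 coding transcripts in KO replicates 15405, 15406, 15409, 15411, 15412 and 15415. In WT it took 41.6%, 31.1%, 27.1% and 28.8% in replicates 15416, 15417, 15418 and 15420. The groups overlapped, and WT replicate 15416 had the highest share of all. The means were 36.0% ± 2.89 in KO (SD, n = 6) and 32.1% ± 6.49 in WT (n = 4), and they did not differ by a two-sided exact permutation test (p = 0.214, smallest possible p 0.00476). Without WT replicate 15416 the WT mean was 29.0% ± 1.99 (n = 3) and the difference was 6.97 percentage points (exact permutation p = 0.0238), and over all 6 Flt1 transcripts the shares were 30.9% and 31.1% (exact permutation p = 0.952). These shares are Kallisto's estimates from single-end reads, and their error was not analysed here.

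**Figure D5:**
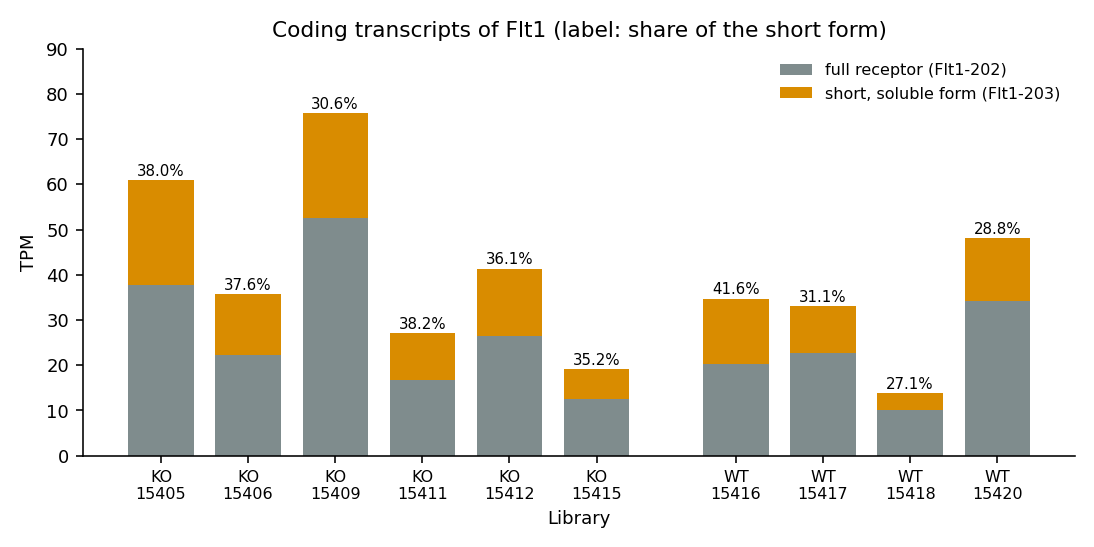
TPM of the 2 coding Flt1 transcripts in each library, the full receptor in grey and the short, soluble form in orange, stacked from 0, with the percent on the short form above each bar. The share runs from 27.1% in WT replicate 15418 to 41.6% in WT replicate 15416.

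The ligands were set against genotype and against the endothelial sum. Of 14 ligand genes tested, 1 was higher and 0 were lower in KO by edgeR's test, at an adjusted p of 0.1. Over all genes tested 1.32% were called higher and 2.67% lower. The median log2 fold change of the ligands was -0.12. Angpt1, the activating ligand of TEK, was at 57.9, 69.1, 12.7, 111, 64.7 and 78.5 CPM in KO and at 2.81, 22.2, 11.5 and 14.9 CPM in WT. KO replicate 15409 lay among the WT libraries and the others above them, with a log2 fold change of 2.36 (SE 0.60, edgeR adjusted p = 0.0856). The Angpt1 call was lost in 11 of 21 alternative settings, 8 of them the removal of a library (all but KO replicate 15409 and WT replicate 15417), with log2 fold changes of 2.02 to 2.77 when a library was left out. Without KO replicates 15405, 15406, 15411, 15412 or 15415 or WT replicate 15416, edgeR called 0 or 1 gene in the whole table. With an offset for transcript length or Xist as covariate it called 0. The losses in these settings are therefore not particular to Angpt1 or to the genes given below. By DESeq2 the adjusted p of Angpt1 was 0.00701 with a fold-change threshold of 0.1 and 0.00245 without. DESeq2 called 1 ligand higher with that threshold and 2 without. Of 16422 genes it called 585 higher and 551 lower with the threshold, and 998 higher and 1145 lower without. Vegfa was at 2.66 to 13.05 CPM, Vegfc, the ligand of FLT4, at 3.70 to 37.1 CPM, and Angpt2, which can oppose ANGPT1, at 4.61 to 13.2 CPM in 9 libraries and at 66.1 CPM in WT replicate 15420. Of the 14 ligands, 0 rose or fell with the endothelial sum after adjustment, where 2.31% and 0.395% of all genes did, and at an unadjusted permutation p under 0.05 1 rose and 2 fell. The share of all genes at that unadjusted threshold was not counted. Over all genes tested, 3.78% had a rho of 0.794 or higher and 11% a rho of 0.552 or higher. The ligand that rose, Sema3f, which binds the neuropilins, had a rho of 0.794 (permutation p = 0.00902, adjusted p = 0.181) and was at 8.90% of the median of the other libraries in WT replicate 15416. The 2 that fell were class 3 semaphorins too, Sema3e (rho -0.770, permutation p = 0.0128, adjusted p = 0.217) and Sema3c (rho -0.661, permutation p = 0.044, adjusted p = 0.372). In WT replicate 15416 Sema3c was at 17.5 CPM and Sema3e at 0.531 CPM, against medians of 0.566 and 0.283 CPM in the other libraries.

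Among 15 co-receptors and regulators, 1 was higher and 0 were lower in KO, beside 1.32% and 2.67% of all genes tested. That gene, Itgav, the integrin chain that pairs with several beta chains, was at 7.37 to 12.5 CPM in KO and 3.25 to 4.44 CPM in WT (log2 fold change 1.43, SE 0.38, edgeR adjusted p = 0.0896), and the call was lost in 10 of 21 alternatives, 7 of them the removal of a library (all but KO replicate 15409 and WT replicates 15417 and 15420). Most of these removals left 0 or 1 call in the whole table. Plxnd1, the plexin that transmits semaphorin signals in endothelium, and Dab2, an endocytic adaptor, rose with the endothelial sum (rho 0.879, adjusted permutation p = 0.076, and rho 0.927, adjusted permutation p = 0.0368). After adjustment 2.31% of all genes tested rose and 0.395% fell. At an unadjusted permutation p under 0.05, 8 of the 15 rose and 0 fell. In WT replicate 15416 Plxnd1 was at 2.78% and Dab2 at 8.24% of the median of the other libraries, beside 93.2% for the protease gene Adam17 and 82.0% for Itgb1.

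Of 28 signal transducers downstream of the receptors, 0 were called in either direction by edgeR, with 2 higher and 0 lower at an unadjusted p under 0.05 and 1 higher by DESeq2 without a fold-change threshold. Over all 16725 genes tested, edgeR called 1.32% higher and 2.67% lower, and 1438 were higher and 1701 lower at an unadjusted p under 0.05. DESeq2 without a threshold called 998 higher and 1145 lower of 16422. With the endothelial sum 2.31% of all genes rose and 0.395% fell. These whole-table values stand beside each list below. The median log2 fold change of the signal transducers was 0.16, and 1, the kinase gene Map2k1, rose with the endothelial sum after adjustment. At an unadjusted permutation p under 0.05, 12 of the 28 rose with it and 1 fell. Of the endothelial markers, 1 of 21, Shank3, was higher in KO (log2 fold change 1.88, SE 0.52, edgeR adjusted p = 0.0931), a call lost in 11 of 21 alternatives, 8 of them the removal of a library (all but KO replicate 15409 and WT replicate 15417), and 9 of 21 rose with their own sum, to which each of them contributes. Among 13 endothelial genes that stem cells also use, Cd34 and Mecom were higher in KO, with log2 fold changes of 0.93 (SE 0.23, edgeR adjusted p = 0.0824) and 1.83 (SE 0.46, edgeR adjusted p = 0.0836). Both calls were lost when any KO library but 15409, or WT replicate 15416 or 15418, was left out. Most of these removals left 0 or 1 call in the whole table. Of these 13 genes 4 rose with the endothelial sum after adjustment, namely Pecam1, Eng, Egfl7 and Robo4. At an unadjusted permutation p under 0.05, 7 rose and 1, Ly6a, fell. Of the 6 sinusoid genes that macrophages share, 0 were called between genotypes by edgeR (0 at an unadjusted p under 0.05 and 0 by DESeq2) and 5 rose with the endothelial sum, Fcgr2b being the exception. Hepatoblast, mesenchymal, megakaryocyte, erythroblast, macrophage, lineage and stem cell sort markers had 0 genes that rose or fell with it after adjustment. At an unadjusted permutation p under 0.05, 1 macrophage gene, Vcam1, and 2 genes of the stem cell sort list, Fgd5 and Hoxb5, rose. At that threshold 2 mesenchymal genes and 1 gene of the stem cell sort list, Ly6a, fell. The share of all genes at the unadjusted threshold was not counted, so the unadjusted numbers of each list cannot be set against it.

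The genes most like each receptor over the 10 libraries were sought among 9494 other genes with a mean of at least 10 CPM. For Kdr they were Plcd1, Chst15 and Cemip2 (r 0.994, 0.993 and 0.992), and for Flt4 they were Gimap4, Igfbp4 and Bmp2 (r 0.999, 0.996 and 0.995). For Nrp1 they were Lhfpl2, Rell1 and Mmrn2 (r 0.994, 0.990 and 0.989), for Nrp2 Shroom2, Rell1 and Phldb2 (r 0.994, 0.987 and 0.986), for Tek Hip1, Fam135a and Nid1 (r 0.988, 0.984 and 0.984) and for Tie1 Egfl7, Plxnd1 and Obsl1 (r 0.989, 0.982 and 0.977). Bmp2, a ligand that sinusoidal endothelium makes in the liver, was at 1.82 CPM in WT replicate 15416 and at 15.1 to 153 CPM in KO. The genes most like Flt1 were less like it, at r 0.933 for Mrps6, 0.932 for Ext1 and 0.903 for Magt1. Of these 20 genes 0 were called between KO and WT by edgeR, and 0 had an unadjusted p under 0.05. Since r was the rule by which they were found it carries no test.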

How the data were processed

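RNA of LT-HSCs from 6 KO and 4 WT livers at E14.5 was analysed as bulk libraries. The authors made SmartSeq2 libraries, which carry neither strand nor molecular identifiers, from 5 ng of RNA with 16 PCR cycles. They sequenced them single-end and quantified them with Kallisto 0.44.0 on Gencode vM16 (GRCm38). They deposited for each library TPM and estimated counts per transcript, and 1 table of counts per gene that are sums of the estimates rounded to whole numbers. For the 16620 of the 17404 genes whose symbols matched transcripts, sums by symbol were within 1 count in 97.5% of the values.

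Depth was 5315435 to 30941726 counts per library, and intervals and SEs cover the libraries as deposited. The numbers of the libraries are those of the sample titles and pair none, and the labels do not say what they number. Genes with at least 11 counts in total (16725 of 17404) entered the test of KO against WT, run in R 4.3.3 with edgeR 4.0.16 (glmQLFit with robust estimation, glmQLFTest, TMM), Benjamini-Hochberg adjusted over all genes, threshold 0.1. Log2 values used log2(CPM + 1). Spearman's rho and Pearson's r against the log2 endothelial sum were tested by 100000 permutations, exactly below 10 libraries, and adjusted over all genes tested, in place of the adjustment over the 7 that the analysis plan named. Single values were compared by exact permutation tests. The tests of KO against WT and of the relation were tried on simulated data, and the exact permutation test on made-up values. The other steps were not tested in this way. Named were the 7 receptors, members of the gene lists, Spi1, Tnfrsf11a and, per receptor, the 3 genes of highest r among those with a mean of at least 10 CPM. The receptors and lists were chosen with earlier results of these data known. Python 3.11, SciPy and pandas were used beside R. Angpt4, Tm4sf18, Vsig4, Hba-a1, Hba-a2, Hbb-bt, Hbb-bs and Ncr1 of the lists were not analysed here, and 1 stem cell gene of the lists is not reported here. Tnfrsf11a was at 1.45 to 4.11 CPM in KO and 0.683 to 5.80 CPM in WT. DESeq2 1.42.0, other scalings, filters, length offsets, covariates and the removal of each library were tried as alternatives.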

Additional observations from a re-analysis of the deposited data

Results flagged for a closer look

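A library was marked when its gap to the nearest library of its group was a large part of the group's range by Dixon's criterion. Of 32 groups examined, 4 were marked, and chance marks about 1 in 20. All 4 were the lowest of the 4 WT libraries, replicate 15416, and they share that library. Kdr was at 5.70 on the log2(CPM + 1) scale there, with a gap of 0.846 of the range. Flt4 was at 3.69 with a gap of 0.933, and Tie1 at 5.76 with a gap of 0.893. The endothelial marker sum was at 9.74 on the log2 scale with a gap of 0.908. Nrp1, with a gap of 0.829, and Tek, with 0.823, were at the critical value of 0.829 without passing it. Nrp2 (0.695) and the share of the short Flt1 form (0.725) were not marked, and Flt1 was lowest in another WT library. In TPM without a log scale none of the 7 genes was marked in that library, with gaps of 0.454 for Kdr, 0.483 for Flt4 and 0.431 for Tie1.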

How the results depend on the processing

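Over 147 log2 fold changes of the 7 receptors under 21 alternatives, 0 passed the threshold (lowest adjusted p 0.344, edgeR or DESeq2) and 19 had the opposite sign. The endothelial covariate gave -0.14 for Flt1, -0.13 for Nrp1 and -0.04 for Nrp2, and the length offset -0.11 for Flt1, -0.13 for Flt4 and -0.16 for Nrp2. With single libraries left out, the log2 fold changes ranged from -0.11 to 0.57 for Kdr, -0.17 to 0.30 for Flt1, -0.23 to 0.39 for Flt4, 0.11 to 0.61 for Tek, 0.14 to 0.66 for Tie1, -0.10 to 0.51 for Nrp1 and -0.20 to 0.67 for Nrp2. Over all genes, 221 were higher and 446 lower, against 585 and 551 by DESeq2 with a threshold of 0.1, 998 and 1145 without it, 0 and 0 with the length offset (1340 and 1228 unadjusted) and 0 and 0 with Xist as covariate (866 and 1508 unadjusted), and 0 to 405 and 0 to 598 when a library was left out. The count was 0 or 1 without KO replicates 15405, 15406, 15411, 15412 or 15415 or WT replicate 15416. The causes were not tested.

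The endothelial difference ranged from -0.248 to 0.688 when a library was left out. The difference in the short Flt1 share ranged from 2.16 to 6.97 percentage points and was -0.249 over all 6 transcripts. All 126 alternative values of rho were positive. With the endothelial genes that stem cells share as the list, Kdr, Flt4 and Nrp1 fell short at 0.830, 0.855 and 0.806, and Tie1 passed at 0.927. With the mean of log values Kdr and Tek fell short at 0.855 and 0.782. In KO alone Kdr, Flt4, Tek and Nrp1 did so at 0.943, each with fewer libraries. Without TMM factors Tie1 and Nrp2 passed at 0.891 and 0.855, and as deviations from genotype means Nrp2 did at 0.879. With the sinusoid genes that macrophages share as the list, an alternative chosen after seeing the data, Tek fell short at 0.806 and Nrp2 passed at 0.915. With a library left out, rho ranged from 0.967 to 0.983 for Kdr and Nrp1, 0.983 to 1.0 for Flt4, 0.817 to 0.983 for Tek, 0.717 to 0.933 for Tie1, 0.717 to 0.900 for Nrp2 and 0.383 to 0.717 for Flt1. The order of mean TPM kept 19 to 21 of 21 pairs in KO and 19 to 20 in WT. No paired analysis was possible because the groups share no replicate numbers and the labels do not give the litters.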
